A study of Caenorhabditis elegans with 9 samples.

Results

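The broad peaks described here are the 378 binding regions of at least 1000 bp among the 7213 regions of a combined peak list for PES-1::GFP in Caenorhabditis elegans. They were chosen by their width in that list (end minus start plus 1), on all 6 chromosomes, and make up 5.24% of the regions (exact binomial interval, 95%, 4.74 to 5.78%). The 6835 narrower regions of the same list are the comparison. Chromatin immunoprecipitation and sequencing (ChIP-seq) was done on L4 hermaphrodites, the last larval stage, of 1 strain, OP87. It carries unc-119(ed3) III and the transgene wgIs87, brought in by bombardment, which holds unc-119(+) and pes-1::TY1::EGFP::3xFLAG. The unc-119(ed3) background, the rescuing unc-119(+) and the tagged pes-1 transgene are shared by every library, so no library lacks the tagged protein. Worms were grown at 20 °C and fixed in 2% formaldehyde, and goat anti-GFP was used to pull down the tagged protein. The ChIP libraries number 2 for biological replicate 1 and 3 for biological replicate 2. Replicate 1 also has 4 libraries of input, DNA set aside before the pull-down, and no input of replicate 2 was analysed here. The labels do not say from how many cultures the libraries came. The deposited values are 1 peak list per replicate and the combined list, with a position and a q-value for each peak and no read counts, so the depth behind a peak is unknown.

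PES-1 is a forkhead transcription factor, a class of proteins that bind DNA through a winged-helix domain, and it is known to act together with the related factor FKH-2 in the embryo. A ChIP-seq peak is a stretch where precipitated fragments outnumber those of a control. A peak caller such as PeakSeq joins neighbouring enriched stretches into 1 region when they lie close together, so a wide peak can be 1 long stretch or several short ones. Worm autosomes have gene-dense centres and repeat-rich arms, a contrast that is weaker on the X chromosome. Positions below are on WormBase build WS190. Gene annotation and sequence of that build were not used here, so regions are given by position only.

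The broad peaks took a larger share of the covered length than of the regions, which their choice by width fixes. Together they covered 614.8 kb, or 20.2% of the 3039 kb covered by the combined list. Their median width was 1343.5 bp, with an interquartile range of 1114.75 to 1780.25 bp. Most lay near the lower limit, with 228 members (60.3%) under 1500 bp, while 76 reached 2000 bp and 20 (5.29%) reached 3000 bp. The widths of all 3 lists fell off without a gap or a step at 1000 bp, so the limit is a point on a continuous range. The members just inside it, of 1001 bp each, were on chromosome III from 13340144 to 13341144 (q = 2.07e-27), on V from 14350403 to 14351403 (q = 1.60e-09) and on IV from 2705226 to 2706226 (q = 4.40e-07). The regions just outside, of 999 bp each, were on II from 14250948 to 14251946 (q = 3.17e-37), on I from 7518214 to 7519212 (q = 5.58e-34) and on III from 4504329 to 4505327 (q = 2.32e-05). The q-values on either side of the limit overlapped.

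**Figure D1:**
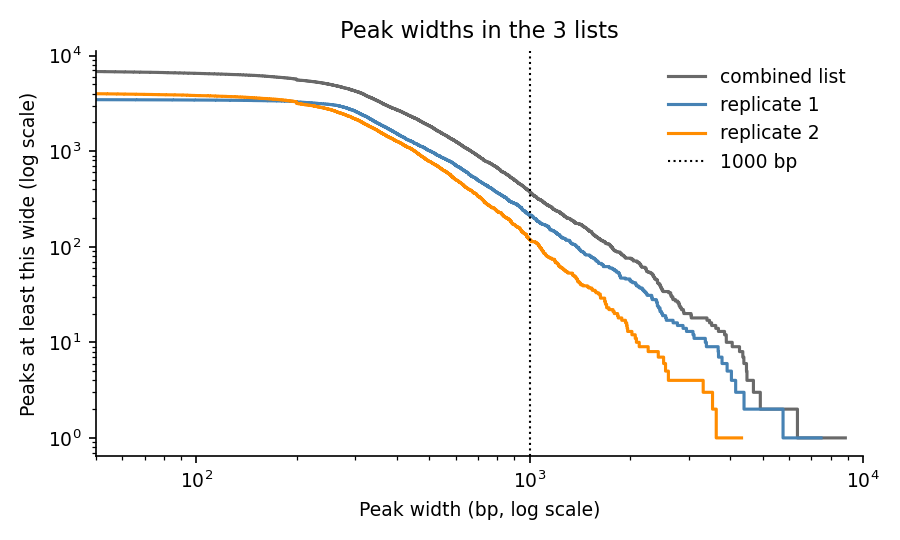
Number of peaks at least as wide as the value on the x axis (bp, log scale; widths under 50 bp are not drawn), with a log y axis, for the combined list and the lists of replicates 1 and 2; the dotted line marks 1000 bp. At the line the curves stand at 378, 214 and 119 peaks, and none of them has a step there.

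The same limit drew a different number of regions from each replicate list. Replicate 1 had 214 peaks of at least 1000 bp among 3488 (6.14%), and they took 20.6% of its covered length. Replicate 2 had 119 among 4185 (2.84%), which took 11.4%. The widest peak was 7487 bp in replicate 1, 4324 bp in replicate 2 and 8856 bp in the combined list. Within each list, neighbouring peaks were never closer than 200 bp in the combined list, 200 bp in replicate 1 and 201 bp in replicate 2.

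Broad peaks had smaller q-values than narrower ones, on the authors' own scale. The median q was 1.06e-13 for the members and 9.87e-05 for the narrower peaks, and 230 members (60.8%) had q under 1e-10, against 1096 of 6835 narrower peaks (16.0%). The members took 43 of the 100 smallest q-values in the list and 6 of the 10 smallest. Among the members, wider peaks also tended to have smaller q. Their median −log10 q was 11.3 under 2000 bp and 27.1 in wider ones. Spearman's rho between width and −log10 q was 0.29 over the 378 members, against 0.56 over the narrower peaks. The sets span different ranges of width, so these values do not compare directly. Both are descriptions over regions of 1 list, where width and q come from the same reads. In 19 members (5.03%) q was over 0.001. All q-values in the lists are under 0.01.

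The member with the smallest q lay on chromosome III from 7709628 to 7712483 and was 2856 bp wide. Each replicate called it as a single peak, of 2956 bp in replicate 1 and 2558 bp in replicate 2. The second, on III from 1936510 to 1939403, was called as 2 peaks in both, of 1053 and 1206 bp in replicate 1 and of 1195 and 2433 bp in replicate 2. It sat in a crowded stretch, with 13 other combined peaks within 10 kb, the most around any member. The fifth smallest q in the list belonged to a member of only 1021 bp, on III from 1616169 to 1617189, called as 997 bp and 980 bp in the replicates. The sixth was on X from 16929378 to 16931991, of 2614 bp, called as 2572 and 2609 bp; a second peak lay 369 bp to its right and no other within 10 kb.

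The widest members show the range of shapes. The widest of all, on X from 6737036 to 6745891, was 8856 bp long with q = 1.42e-49, which ranked 57 among the combined peaks. Replicate 1 held 2 peaks there, of 944 and 7487 bp, that covered 95.2% of it. Replicate 2 held 4 separate peaks of 443 to 1122 bp, and these covered 39.7%. The next, on II from 10546573 to 10552934 (6362 bp), was 1 peak of 5760 bp in replicate 1 and 3 peaks in replicate 2, of 651, 1056 and 2075 bp, with 90.5% and 59.4% covered. So in both regions replicate 1 had a nearly continuous peak where replicate 2 had islands.

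Other wide members were calls of the same shape in both replicates. The region on V from 723822 to 728295 (4474 bp) was a single peak of 4399 bp in replicate 1 and 4324 bp in replicate 2, the widest peak of that list. On V from 15565884 to 15570147 (4264 bp) the replicates had single peaks of 3688 and 3539 bp, whose starts differed by far less than their common distance from the combined start. At least 1 replicate held several peaks on each of the other 8 of the 10 widest members. On II from 11616267 to 11620960 (4694 bp), for instance, both replicates had 2 peaks with a break near the centre, and each covered little over 50% of the combined width, 55.6% and 56.2%. On III from 12612260 to 12616314 (4055 bp) both had a short peak at the left end, of 601 and 566 bp, then a break and a longer one of 2461 and 1244 bp. On I from 9379946 to 9384339 (4394 bp) both had 2 peaks, but the break lay at a different place, so that the left peak of replicate 2 ran across the break of replicate 1.

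The remaining members of the 10 widest were covered in part. The region on I from 7079048 to 7083970 (4923 bp) held peaks of 1323 and 2695 bp in replicate 1 and a single peak of 1731 bp in replicate 2, which covered 35.2% of it. The one on II from 10541885 to 10546246 (4362 bp) had the weakest q of the 10, 5.45e-13, at rank 991. Its replicate peaks covered 41.5% and 21.8%, all in its left part, and the right part held no peak of either replicate. The widest member of chromosome IV, from 14610712 to 14614604 (3893 bp), was 1 peak of 2488 bp in replicate 1, while replicate 2 had peaks of 1040 and 588 bp at its ends.

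**Figure D2:**
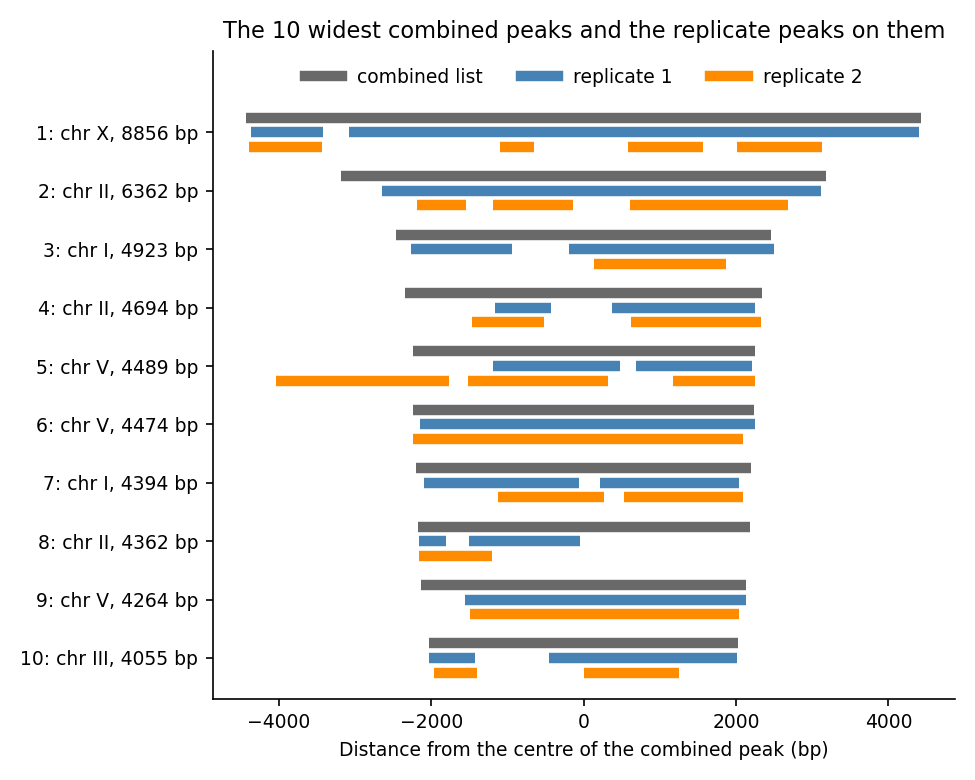
The 10 widest combined peaks (grey) with the replicate 1 (blue) and replicate 2 (orange) peaks that overlap them, against the distance in bp from the centre of the combined peak. Rows 6 and 9 are single peaks in both replicates; in the other 8 rows at least 1 replicate has several peaks, up to the 4 of replicate 2 in row 1, and the leftmost replicate 2 peak of row 5 reaches past the combined start.

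Broad peaks were a larger share of the peaks on X than on chromosome I, and the autosomes II to V lay between. Of the 900 combined peaks on X, 67 were broad (7.44%, 5.82 to 9.36%), and of the 1528 on I, 52 were (3.40%, 2.55 to 4.44%). The shares on II, III, IV and V were 4.93%, 5.30%, 5.61% and 5.86%. Neighbours in this order had overlapping intervals, and those of I and X did not overlap. Per length the order was another one, with 5.74 broad peaks per Mb on III, 3.79 on X, 3.67 on II, 3.45 on I, 3.32 on IV and 3.16 on V. Intervals here and below cover counting error only; peaks are not replicates, and they cluster.

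The order of the chromosomes was not the same in each replicate list. In replicate 1, 43 of 383 peaks on X were broad (11.2%) and 28 of 634 on I (4.42%). In replicate 2 the shares were 3.38% on X and 2.68% on I, within each other's intervals, and the lowest was on III, at 2.32%. Among combined peaks with q under 1e-10 the share was 21.9% on X (15.1 to 30.04%) and 11.7% on I (8.43 to 15.7%), and among those in both replicates it was 14.8% (10.9 to 19.5%) and 9.54% (6.73 to 13.01%). In both subsets the intervals of I and X overlapped, unlike those over all combined peaks. The q-values themselves differed between the chromosomes, in broad and in narrower peaks. Of the broad peaks, 28 of 67 on X (41.8%) and 38 of 52 on I (73.1%) had q under 1e-10, and of the narrower ones 12.0% on X and 19.4% on I.

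Along the chromosomes, broad peaks lay more often in the middle of 3 equal parts than narrower ones did. The middle parts held 148 of the 378 members (39.2%, 34.2 to 44.3%) and 27.7% of the narrower peaks (26.7 to 28.8%). Put the other way, 7.24% of the peaks in the middle parts were broad, against 3.90% in the left and 5.05% in the right parts. The middle share was above both outer shares on 5 of 6 chromosomes, the exception being IV, with 7.53% in the right part and 6.53% in the middle. X had the highest value, where 31 of 235 peaks in the middle part were broad (13.2%, 9.14 to 18.2%), against 5.71% and 5.14% at its sides. The middle of X was also the highest part in replicate 1 (17%) and among combined peaks in both replicates (21.6%). It was not the highest in replicate 2, with 4.09% against 5.71% in the left part of V. Nor was it at q under 1e-10, with 27.3% against 32.6% in the right part of IV. The replicate lists showed a smaller contrast. The left, middle and right shares were 4.77%, 7.90% and 6.17% in replicate 1 and 2.62%, 3.65% and 2.42% in replicate 2, with the middle the highest on 3 and on 4 of 6 chromosomes. Among combined peaks found in both replicates, the left, middle and right shares were 9.85%, 13.3% and 12.8%, with overlapping intervals for the middle and right. On the autosomes alone the right share of these peaks, 13.02%, was above the middle one, 12.3%. The 279 members in both lists lay most often in the right parts (35.8%), and 32.6% of them lay in the middle parts.

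**Figure D3:**
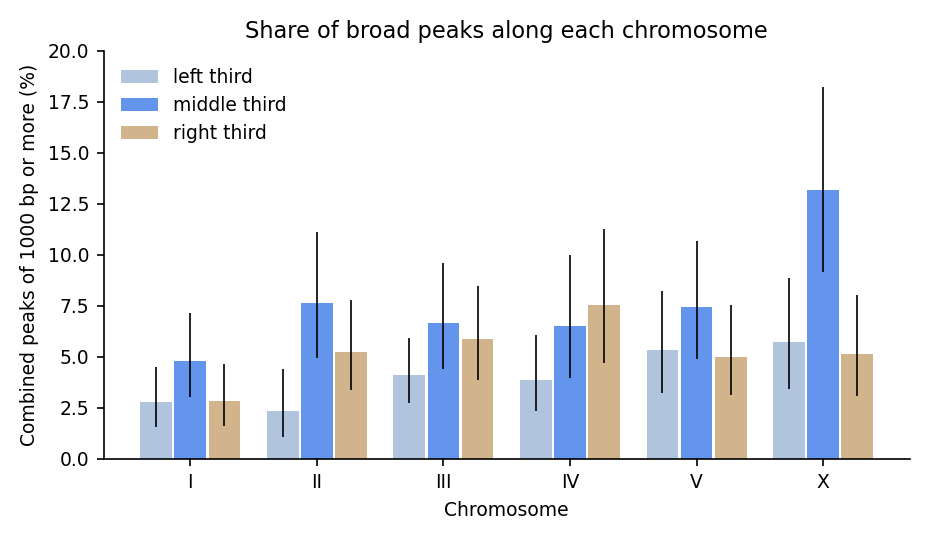
Share of combined peaks that are at least 1000 bp wide (%, bars) in the left, middle and right of 3 equal parts of each chromosome, with exact binomial 95% intervals (lines). The middle bar is the highest on every chromosome but IV, and the highest of all is the middle part of X, at 13.2%.

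The place along the chromosome moved with the q-value. Among members with q of 1e-10 or more, 73 of 148 (49.3%, 41.02 to 57.7%) lay in the middle parts, against 27.7% of narrower peaks in that range of q. Among those with q under 1e-10 it was 75 of 230 (32.6%, 26.6 to 39.1%) against 27.8% of narrower peaks (25.2 to 30.6%), and these intervals overlap. By width, the middle parts held 19.1% of peaks under 250 bp, 32.7% of those from 250 bp to under 500 bp, 29.7% from 500 bp to under 1000 bp, 39.4% from 1000 bp to under 2000 bp and 38.2% of wider ones. The larger share of members in the middle was thus found mostly among those with weaker q. The part of q in it was not tested.

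Edge to edge, broad peaks had closer neighbours. The median gap from a member's edge to the nearest other combined peak was 1014.5 bp (order-statistic interval, 95%, 823 to 1203 bp), against 2383 bp (2278 to 2520 bp) for narrower peaks and 1708.5 bp for those from 500 bp to under 1000 bp. Such a gap leaves out the width of the peaks, by which the members were chosen. From midpoint to midpoint the members' median was 2253.75 bp, which was not compared with narrower peaks. A second peak within 500 bp was present for 111 members (29.4%) and 946 narrower peaks (13.8%). No other peak lay within 10 kb of 36 members (9.52%) and 17.1% of narrower ones. The closeness held at the short scale, since the median number of other peaks within 10 kb was 3 for members and 2 for narrower peaks, and within 50 kb it was 8 for both. The gap differed little with q, since members with q under 1e-10 had a median of 972 bp and those with larger q 1057 bp, while narrower peaks had 2293.5 and 2398 bp. The number of peaks within 10 kb had a median of 3 in members with q under 1e-10 and of 2 in those with larger q, the latter the same as in narrower peaks.

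**Figure D4:**
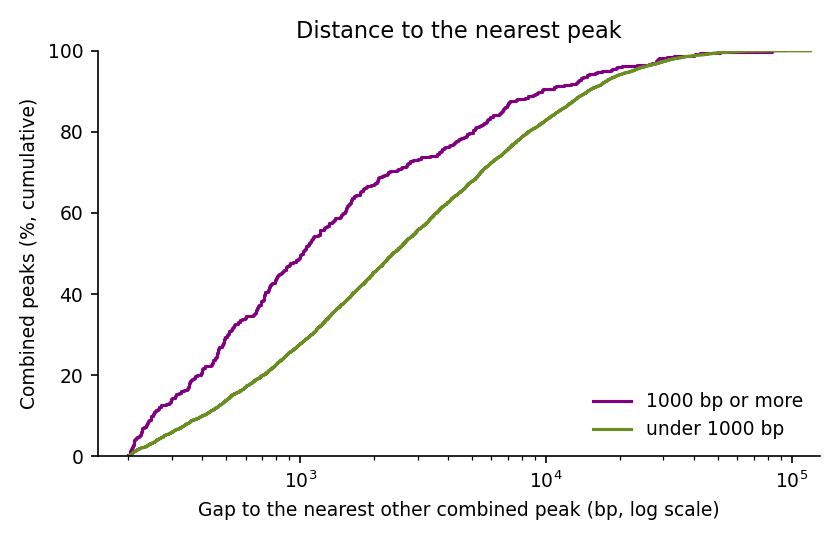
Cumulative share of combined peaks (%) by the gap in bp, edge to edge, to the nearest other combined peak (log scale), for peaks of at least 1000 bp and for narrower ones. The broad curve lies above the narrower one through the short distances, at 29.4% against 13.8% by 500 bp, and the medians are 1014.5 and 2383 bp.

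Some members were neighbours of each other. The nearest peak was itself broad for 63 members (16.7%, 13.1 to 20.8%) and for 5.41% of narrower peaks (4.89 to 5.98%). In 49 cases a member followed a member directly along the chromosome, and in 19 of these the gap was within 500 bp. The longest such stretch was on II, where the members from 10541885 to 10546246 and from 10546573 to 10552934, both among the 10 widest, were 326 bp apart and spanned 11050 bp together. On V the members from 6222318 to 6225368 and from 6225580 to 6230068 were 211 bp apart and spanned 7751 bp. A single replicate 2 peak of 2269 bp ran across that gap, so the list of replicate 2 joined what the combined list kept apart. The member with the smallest q of all, on III, had a broad neighbour 238 bp to its left, from 7707234 to 7709389, and the pair spanned 5250 bp. On IV 3 members followed one another, from 4468023 to 4470684, 4470939 to 4472204 and 4472415 to 4474427, with gaps of 254 and 210 bp.

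Most broad peaks were seen in both replicate lists. A replicate 1 peak overlapped 326 members (86.2%, against 47.3% of all combined peaks) by at least 1 bp, and a replicate 2 peak overlapped 308 (81.5%, against 51.7%). Both did so in 279 (73.8%, 69.1 to 78.2%, against 32.7% of all), and neither in 23 (6.08%, against 33.7%). Replicate 1 alone held 47 members (12.4%, against 14.6% of all) and replicate 2 alone 29 (7.67%, against 19.0% of all). These shares are no independent support for the members, because a wide region meets an overlap of 1 bp more easily and all 3 lists may rest on the same reads. At q under 1e-10 the contrast with narrower peaks was gone, with 219 of 230 members (95.2%) and 1055 of 1096 narrower peaks (96.3%) in both. At larger q it was 60 of 148 members (40.5%) and 17.8% of narrower peaks.

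The share in both replicates was lowest on X, at 42 of 67 members (62.7%, 50.01 to 74.2%), and highest on III, at 66 of 79 (83.5%, 73.5 to 90.9%), and these intervals overlap. In narrower peaks it was 28.9% on X and 35.5% on III, again the highest, while the lowest was 22.5% on I. On I, 11 of 52 members (21.2%) were held by replicate 1 alone and 2 (3.85%) by replicate 2 alone, and the narrower peaks of I leaned the same way, with 16.5% and 9.01%. The widest members held by 1 replicate alone were both on I and in replicate 1. They ran from 7656500 to 7660390 (3891 bp, q = 1.93e-40, 79.5% covered) and from 7869956 to 7872644 (2689 bp, q = 4.67e-21, 94.7% covered). The third, on II from 6888225 to 6890724 (2500 bp, q = 1.98e-06), had a replicate 2 peak on 21.9% of its width.

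The 23 members in neither replicate list had weak q-values. Their highest −log10 q was 8.08, their median width was 1258 bp, and in 12 of them q was over 0.001. The widest were on V from 11820540 to 11823017 (2478 bp, q = 0.00384), on I from 5375012 to 5376880 (1869 bp, q = 8.27e-09) and on X from 11478698 to 11480288 (1591 bp, q = 0.000722). Each had another combined peak close by, at 225, 241 and 511 bp. Such a region is listed only in the combined list, and a missing replicate peak does not show that it was unbound.

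Where a replicate held a broad region, it usually held it as 1 peak, and replicate 2 broke it up more often than replicate 1. Replicate 1 had several peaks on 31 of the 326 members it overlapped (9.51%, 6.55 to 13.2%), and replicate 2 on 67 of 308 (21.8%, 17.3 to 26.8%). Over all 7213 combined peaks, 0.541% held several replicate 1 peaks and 1.16% several replicate 2 peaks. Among the narrower ones the counts were 8 of 3086 overlapped (0.259%) and 17 of 3421 (0.497%). Since peaks of a list lie at least 200 bp apart, a narrow region has little room for more than 1, and the contrast with narrower peaks is in part fixed by the width. The breaks grew commoner with width, from 5.51% of members under 2000 bp to 23.6% of wider ones in replicate 1, and from 13.5% to 49.3% in replicate 2.

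Few members were broken up in both replicates. Both held several peaks on 14 members (3.70%, against 0.222% of all combined peaks). Replicate 1 held 1 where replicate 2 held several on 49 (13.0%, against 0.832%), and the reverse was so on 16 (4.23%, against 0.305%). A single peak in each was found on 200 members (52.9%). That was so for 31.3% of all combined peaks and 52.6% of those from 500 bp to under 1000 bp. At least 1 replicate had several peaks on 84 members (22.2%, against 1.48% of all), and on 27 of the 50 widest. By chromosome this share ran from 7 of 67 on X (10.4%, 4.30 to 20.3%) and 8 of 52 on I (15.4%, 6.88 to 28.1%) to 31 of 79 on III (39.2%, 28.4 to 50.9%). In narrower peaks it was 0 of 833 on X (exact upper bound 0.442%), 0.0678% on I and 0.779% on III. The share of members with q under 1e-10 was 41.8% on X and 73.4% on III, and 73.1% on I, so the chromosomes with many strong members were not all alike in this.

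The pieces were few and close together. All 31 members broken up in replicate 1 held 2 peaks, with gaps of 200 to 975 bp and a median of 281 bp. In replicate 2, 61 members held 2 peaks, 4 held 3 and 2 held 4, with gaps of 201 to 2339 bp and a median of 353 bp. Gaps under 500 bp numbered 26 of 31 and 49 of 75. The 2 members with 4 replicate 2 peaks were the widest one on X and the one on IV from 2601991 to 2604822 (2832 bp, q = 2.36e-51), where pieces of 341, 208, 548 and 197 bp stood against 872 and 1731 bp in replicate 1. The widest piece held a median of 65.3% of the length of all pieces in replicate 1 and 63.9% in replicate 2. Where there are 2 pieces, the widest holds at least 50% by construction. With the pieces ranked by q, the best had a median −log10 q of 13.6 against 3.84 for the second in replicate 1. In replicate 2 the values were 5.55 and 2.94. The ranking fixes the order of these values, and only their size is a description.

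Fewer regions were broad by the replicates' own peaks. At least 1 replicate 1 peak of 1000 bp or more lay on 199 members (52.6%, against 3.01% of all combined peaks). At least 1 replicate 2 peak of that width lay on 108 (28.6%, against 1.55%). Both replicates had such a peak on 73 members (19.3%, against 1.01% of all), and neither on 144 (38.1%, against 96.5%). The members were chosen by width in the combined list, so these shares are not independent of that choice. In the other direction, 202 of the 214 broad replicate 1 peaks lay on members, 12 on narrower combined peaks and 0 on none. Of the 119 broad replicate 2 peaks, 114 lay on members, 3 on narrower combined peaks and 2 on none.

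The replicate peaks filled less of a broad region than of a narrow one. Where present, replicate 1 peaks covered a median of 85.5% of a member's width and replicate 2 peaks 62.3%, against 92.2% and 85.0% for narrower peaks. For those from 500 bp to under 1000 bp the medians lay between, at 89.6% and 79.3%. The denominator of these shares is the combined width, by which the members were chosen, so the contrast is not independent of that choice. Of the bases called in either replicate within a member held by both, a median of 62.9% were called in both, against 81.7% for narrower peaks. The median was 72.9% for those from 500 bp to under 1000 bp. At least 80% were common in 84 of the 279 members, and in 1136 of the 2079 narrower peaks. The replicate peaks had no base in common in 4 of these 279 members and in 16 of the 2079 narrower peaks. At least 90% of the width was covered by each replicate in 25 members, a count that was not compared with narrower peaks.

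Edges were compared where each replicate had 1 peak on the region and neither peak touched another combined peak, which left 195 members and 2050 narrower peaks. In bp the replicates' edges were farther apart in broad peaks. The median difference between replicate 1 and replicate 2 over starts and ends was 106.5 bp (87 to 126 bp) in the members, against 33 bp (32 to 34 bp) in narrower peaks and 58 bp (53 to 63 bp) in those from 500 bp to under 1000 bp. Starts and ends of members were alike in this, at 99 and 114 bp. As a share of the combined width, however, the medians were 7.64% (6.34 to 10.4%) in members and 7.87% (7.57 to 8.24%) in narrower peaks, with overlapping intervals. The upper quartile was 23.1% of the width in members, 15.5% in all narrower peaks and 21.5% in those from 500 bp to under 1000 bp.

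The commonest case among these 195 members was 1 end close between the replicates and the other not. Both edges were within 100 bp between the replicates in 41 members (21.0%), 1 edge was in 105 (53.8%, 46.6 to 61.0%) and no edge in 49 (25.1%). In narrower peaks these shares were 69.1%, 26.6% and 4.29%, and in those from 500 bp to under 1000 bp 41.3%, 49.5% and 9.24%. A limit in bp is easier to meet for a short peak. The q-value moved with the size of the difference. Members with q under 1e-10 had a median difference of 93.5 bp, or 6.21% of the width, and the 50 pairs with larger q had 204 bp, or 15.9%. In narrower peaks the corresponding values were 29 bp and 6.56%, and 36 bp and 9.38%.

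**Figure D5:**
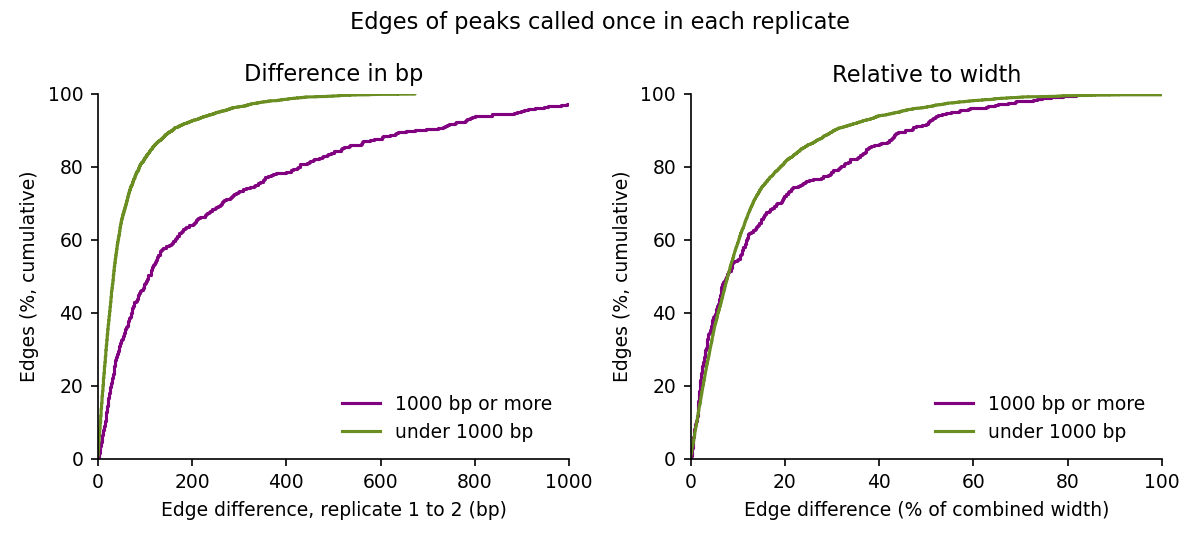
Cumulative share of edges (starts and ends together, %) by the difference between the replicate 1 and replicate 2 edge, in bp (left; differences over 1000 bp are not drawn) and as a percentage of the combined width (right; over 100% not drawn), for 195 broad and 2050 narrower peaks called once in each replicate. In bp the broad curve lies well to the right, with medians of 106.5 and 33 bp, while relative to width the curves meet near their medians of 7.64% and 7.87% and part above them, with upper quartiles of 23.1% and 15.5%.

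Replicate 2 gave the shorter peak in most of these members. The median width over the 195 members was 1261 bp in the combined list, 1070 bp in replicate 1 and 842 bp in replicate 2. As a share of the combined width the medians were 87.8% and 63.8%, against 91.2% and 84.7% in narrower peaks. In those from 500 bp to under 1000 bp they were 89.4% and 80.6%. Here too the denominator is the width by which the members were chosen. Replicate 1 had the wider peak in 137 members (70.3%, 63.3 to 76.6%) and in 64.5% of narrower peaks (62.4 to 66.6%), with overlapping intervals. The replicate 2 peak spanned less than 50% of the combined width in 65 members (33.3%), and the replicate 1 peak in 25 (12.8%). Over all 2245 combined peaks compared in this way, the shares were 10.6% and 4.81%. Within the combined limits lay 178 of the replicate 2 peaks (91.3%) and 143 of the replicate 1 peaks (73.3%), near the 85.0% and 71.4% over all. The replicate 2 peak lay wholly inside the replicate 1 peak in 85 members (43.6%, against 38.8% over all). The reverse held in 26 (13.3%, against 14.9%). Spearman's rho between the widths in both replicates was 0.36 over these 195 members, a description over regions that share libraries and were chosen for width.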

How the data were processed

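ChIP-seq of PES-1::GFP was analysed from 3 deposited peak lists, 1 per biological replicate and 1 combined, which hold no values per library. The authors used PeakSeq, per the lists' method column, and positions are on WormBase build WS190, per the file headers. The construction of the combined list, the control behind each list, the threshold, the aligner and all versions were not given in the sources used here. The only score is the q-value, as deposited by the authors; a q-value depends on depth as well as enrichment. The members and the lists of regions were chosen with earlier results of these data known. Named regions were the 10 widest members, the widest of each chromosome, the 5 with the smallest q, the 3 with the most replicate peaks in either list, the 3 widest in neither and in 1 replicate only, and the 3 nearest to 1000 bp on either side; members next to each other were named after their values were seen.

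Peaks were shared at an overlap of 1 bp. Gaps count the bases between 2 peaks. The largest peak end in any list stood for the length of a chromosome, and each chromosome was cut into 3 equal parts. No test was run: with 1 list per replicate there is no spread between samples, so shares carry exact binomial (Clopper-Pearson) and medians order-statistic intervals at 95%. Alternatives were other width limits, overlap rules, joining of close peaks, only peaks with q under 1e-10 or in both replicates, the replicate lists themselves, other windows, other parts of a chromosome, and leaving out chromosome I or a replicate. Routines were checked on simulated peaks. Python 3.11.15, numpy 2.4.6, pandas 2.3.3, scipy 1.17.1 and matplotlib 3.10.9 were used.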

Additional observations from a re-analysis of the deposited data

How the results depend on the processing

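Of 74 values under alternatives, 39 stayed within the interval of the main value and 35 moved. With broad peaks defined from 800, 1500 and 2000 bp, there were 672, 150 and 76 members; by construction the broad share on I became 7.20%, 1.11% and 0.654% and on X 11.8%, 3.67% and 1.33%. Members in both replicates were 67.9%, 78.7% and 89.5%, those with several replicate 2 peaks 14.6%, 37.7% and 49.3%, and those with several replicate 1 peaks 15.8% and 23.6% from 1500 and 2000 bp, where the edge difference was 188.5 and 158.5 bp. With q under 1e-10 the shares were 11.7% on I, 21.9% on X, 95.2% in both replicates and 32.6% in the middle part. Among peaks in both replicates the broad shares on I and X were 9.54% and 14.8%; on X the replicate lists gave 11.2% and 3.38%. With 50% of the width covered, 42.9% of members were in both replicates. Counting members in a single replicate list gave 81.5% to 86.2%, by construction. Joining replicate peaks up to 500 bp apart, added after seeing the data, left several peaks on 1.53% and 8.12% of members. The gap from midpoint to midpoint was 2253.75 bp, which adds part of each width; the middle 50% of each chromosome held 56.3% of members, and 8 other peaks lay within 50 kb. Except where the construction gives it, the cause was not tested.

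Against narrower peaks, the direction of the 6 values compared held at every width limit, without chromosome I and with close combined peaks joined. The gap was compared in this way from edge to edge only. At q under 1e-10 it turned for the share in both replicates (95.2% against 96.3%). The edge difference as a share of width changes the unit and stands with the edges above. No paired analysis was possible because each replicate is 1 list and no test was run. Depth is unknown, so a missing peak is not an unbound region.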

Other observations

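A pair of replicate 2 peaks of at least 1000 bp overlapped no combined peak, and both were chosen after their values were seen. They lay on I from 15064011 to 15067641 (3631 bp, q = 3.11e-83) and on V from 5284029 to 5285611 (1583 bp, q = 0.00141). The one on I was at the far right end of the peaks there, since the largest peak end on I was at 15.0676 Mb. No replicate 1 peak of that width lay outside the combined list. Single replicate peaks that ran across the gap between 2 combined peaks numbered 13 in replicate 1, of which 7 were at least 1000 bp wide, and 6 in replicate 2, of which 2 were. At the other end of the width range, the combined list held 393 peaks under 50 bp, 18 of them 1 bp long, against 28 and 2 in replicate 1 and 191 and 5 in replicate 2.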
